A study of Danio rerio with 6 samples.

Results

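Most of the genes described here encode the phototransduction cascade of rods and cones, with the opsins themselves left out. This chain of proteins turns the absorption of light by an opsin into an electrical signal. Also included are prph2a, prph2b and rom1a, genes of the outer segment disc rim, and rbp4l, which encodes a retinol-binding protein. Members were the rows of the deposited table with any of 32 gene symbols, plus 1 cyclase activator copy that carries the symbol GUCA1A (1 of many), 33 genes of 31624 in all. Whole embryos of the zebrafish (Danio rerio) were sampled at 72 hours post fertilization (hpf), as 3 samples of rhpn2 mutants and 3 of wild type, lettered a to c in each group. The labels give neither an allele nor the parents, the clutch or the number of embryos behind a sample, so the p-values reflect only how far these samples spread, part of which may be technical. Column headers of the mutant samples carry a number after the gene name, and its meaning is not stated. From textbook knowledge, 8 members were placed in a rod class (gnat1, gngt1, pde6a, pde6b, saga, sagb, grk1a and cnga1) and 14 in a cone class (gnat2, gnb3a, gnb3b, gngt2a, gngt2b, pde6c, pde6h, arr3a, arr3b, grk1b, grk7a, grk7b, cnga3a and guca1c). The cone placement of gnb3a and grk7b is the least certain of these. The remaining 11 serve both cell types or could not be placed with certainty.

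In both photoreceptor types, an opsin that has absorbed light activates the G protein transducin, made of an alpha, a beta and a gamma subunit. Transducin relieves the inhibition of a phosphodiesterase that breaks down cyclic GMP, and the cyclic nucleotide-gated cation channels of the outer segment then close. Opsin kinases and arrestins switch the opsin off, the GTPase accelerator RGS9 switches transducin off, and guanylate cyclases with their calcium-sensing activators restore cyclic GMP. Rods and cones use separate genes for most of these steps, and the zebrafish has extra copies of several of them. Larval vision at this age is known to rest mainly on cones.

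Libraries held 14918069 to 17056923 counts. As a check of the labels, rhpn2 had 195, 194 and 188 counts in mutant a, b and c, against 685, 755 and 743 counts in the wild type samples a, b and c, and was lower in each mutant sample. Over the 20032 genes that passed a low-count filter, the quasi-likelihood test of edgeR called 33.2% at an adjusted p below 0.05, with 16.7% lower and 16.5% higher in mutants. Groups of 3 samples did not overlap for 47.8% of these genes in library-scaled counts (trimmed mean of M values, TMM). All log2 changes below are mutant minus wild type on that TMM scale, while FPKM levels (counts divided by exonic length and library total) are scaled by library totals alone. Over all tested genes the median log2 change was 0.01 on the TMM scale and 0.11 with library totals. Because whole embryos were sequenced, fewer photoreceptors and less RNA per photoreceptor cannot be told apart.

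Transcripts of the cascade members were lower in mutants at nearly every step. Of 32 members tested, 28 fell and 0 rose by edgeR, where 16.7% of all tested genes fell and 16.5% rose. No member had a positive change at an unadjusted p below 0.05, and DESeq2 and limma also called 0 members higher, where they called 14.8% and 21.9% of all genes higher. The median log2 change of the tested members was -1.80, and 25 of them were called with a log2 change of -1 or lower, as were 4.76% of all tested genes. The groups did not overlap in scaled counts for the 28 members that fell, against 23.7% of all tested genes with mutants lower. In FPKM the groups of rom1a overlapped. The 4 tested members without a call were gnb3a, grk7b, cnga1 and guca1a. The activator gene guca1d was below the filter, with 9, 0 and 5 counts in mutants and 2, 10 and 3 counts in wild type. Of the tested members, guca1c passed the filter through its wild type samples alone and so had to differ. Without it 27 of 31 members fell, with a median log2 change of -1.78.

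**Figure D1:**
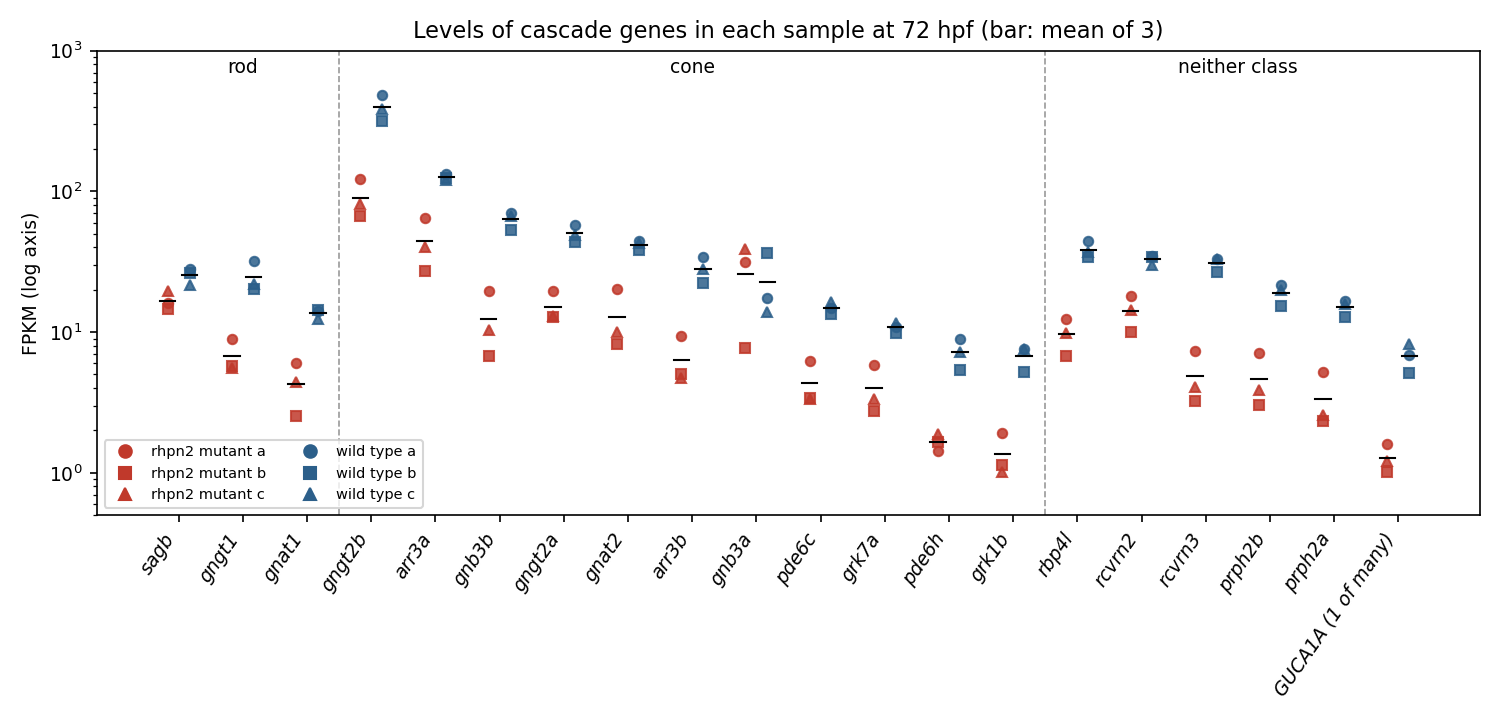
FPKM on a log axis in each sample for the 20 members with a mean of at least 5 FPKM in either group, with mutants left of wild type and a bar at the mean of 3 samples. The points of gnb3a are intermingled between the groups, while for the other 19 genes all mutant points lie below all wild type points.

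Summed over the 33 members, FPKM was 401, 200 and 284 in mutant a, b and c, against 1139, 887 and 972 in wild type. The highest mutant sum was thus below the lowest wild type sum. The cone gamma subunit gene gngt2b supplied 30.6%, 33.3% and 28.8% of that sum in mutants and 42.8%, 36.0% and 39.5% in wild type, the largest contribution of a single member in each sample. In wild type the next members by FPKM were the cone arrestin arr3a and the transducin beta gene gnb3b.

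Both transducin alpha genes, whose products bind the GTP, fell. The rod gene gnat1 (ENSDARG00000044199, chromosome 6, 42921397 to 42932766, plus strand) had 5.99, 2.52 and 4.4 FPKM in mutant a, b and c, against 14.1, 14.4 and 12.5 FPKM in wild type. Its log2 change was -1.78 ± 0.22 (SE, edgeR adjusted p 7.31e-05). The cone gene gnat2 (ENSDARG00000042529, chromosome 8, 25206451 to 25228145, minus strand) had 20.3, 8.25 and 9.99 FPKM in mutants, against 44.6, 38.2 and 43.0 FPKM in wild type. Its log2 change was -1.82 ± 0.24 (SE, edgeR adjusted p 0.000115). In both genes mutant a was the highest mutant, and no mutant sample reached a wild type sample. Within each sample the log2 ratio of gnat1 to gnat2 counts per exonic base averaged -1.55 ± 0.32 in mutants and -1.62 ± 0.19 in wild type (SD, n = 3 each). That difference of 0.07 was smaller than the spread between replicates (exact two-sided permutation test, p = 0.8, where the smallest possible value is 0.1).

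All 3 gamma subunit genes, whose products anchor transducin to the membrane, fell. The most abundant member, gngt2b (ENSDARG00000103543, chromosome 12, 3420170 to 3423318, minus strand), had 123, 66.6 and 81.6 FPKM in mutants, against 488, 319 and 384 FPKM in wild type, a log2 change of -2.25 ± 0.20 (SE, edgeR adjusted p 8.3e-06). Its paralog gngt2a had 19.7, 12.9 and 13.0 FPKM in mutants, against 58.1, 43.7 and 49.4 FPKM in wild type, a log2 change of -1.84. The rod gene gngt1 had 8.91, 5.77 and 5.57 FPKM in mutants, against 31.9, 20.3 and 22.0 FPKM in wild type, a log2 change of -1.99. In each of these genes the mutants stood clear of wild type, and wild type a was the highest wild type sample. The level of gngt2a relative to gngt2b was 0.161, 0.194 and 0.159 in mutants and 0.119, 0.137 and 0.129 in wild type, a ratio whose groups did not overlap. That ratio was not a planned comparison and was not tested.

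The paralogs for the transducin beta subunit took separate courses. The gene gnb3b (ENSDARG00000002696, chromosome 19, 5189740 to 5218859, minus strand) had 19.7, 6.80 and 10.4 FPKM in mutant a, b and c, against 69.8, 53.3 and 67.1 FPKM in wild type. It fell 5.59-fold, a log2 change of -2.48 ± 0.27 (SE, edgeR adjusted p 2.94e-05). The gene gnb3a (ENSDARG00000004358, chromosome 16, 12131641 to 12158860, plus strand) had 31.7, 7.71 and 38.7 FPKM in mutants, against 17.5, 36.4 and 13.9 FPKM in wild type. Mutant b was the lowest of all 6 samples, wild type b was higher than the other wild type samples, and the groups overlapped. The log2 change of gnb3a was 0.10 ± 0.44 (SE, edgeR adjusted p 0.886), and its sign depended on single libraries, at -0.33 without mutant c and 0.60 without wild type b. Per exonic base, gnb3a was expressed at 1.61, 1.13 and 3.72 times the level of gnb3b in mutants, and at 0.251, 0.683 and 0.207 times that level in wild type, so the order of the paralogs was opposite in the groups. This ratio was chosen after its values were seen and was not tested.

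In mammals the beta subunit GNB3 is known from cones and from ON bipolar cells, the neurons that receive photoreceptor signals, so the values of bipolar genes are given beside gnb3a. The bipolar transcription factor gene vsx1 had 34.2, 11.7 and 33.6 FPKM in mutants, against 22.1, 42.1 and 19.4 FPKM in wild type. As for gnb3a, mutant b was the lowest of all samples and wild type b the highest wild type sample. This pattern was not particular to bipolar genes. It was also seen in crx, rlbp1a and isl2b, genes of other lists described below. In the bipolar gene grm6a, wild type b was instead the lowest wild type sample. The gene vsx1 was named after its values were seen, and mutant b was also the lowest mutant for 25 of 32 tested members. Over the 8 tested bipolar genes, 3 (cabp5b, nyx and trpm1a) fell and 1 rose, where 16.7% of all tested genes fell and 16.5% rose. The summed FPKM of the bipolar list was 73.05, 37.35 and 69.0 in mutants and 56.3, 85.9 and 53.2 in wild type. The part of bipolar transcripts in the gnb3a values was not tested.

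Phosphodiesterase genes of both the rod and the cone class fell. The cone catalytic subunit gene pde6c had 6.22, 3.40 and 3.34 FPKM in mutants, against 14.95, 13.5 and 16.3 FPKM in wild type, a log2 change of -1.90 ± 0.18 (SE, edgeR adjusted p 1.42e-05). The cone inhibitory subunit gene pde6h had 1.44, 1.65 and 1.88 FPKM in mutants, against 8.95, 5.42 and 7.23 FPKM in wild type, a log2 change of -2.23. Among the members that fell, pde6h and the rod arrestin sagb were the ones in which mutant a was not the highest mutant. The rod catalytic genes pde6a and pde6b were near 1 FPKM: pde6a had 1.05, 0.53 and 0.71 FPKM in mutants, against 1.48, 1.44 and 1.79 FPKM in wild type. Their log2 changes were -1.14 for pde6a and -1.45 for pde6b, with SEs of 0.25 and 0.21 (edgeR adjusted p 0.00365 and 0.000261).

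All 4 genes of arrestins, which bind the phosphorylated opsin and stop its signalling, fell, with log2 changes from -2.26 to -0.71. In zebrafish arr3a is known from red and green cones and arr3b from blue and ultraviolet cones. The gene arr3a (ENSDARG00000056511, chromosome 10, 26838500 to 26849684, plus strand) had 65.0, 27.3 and 40.6 FPKM in mutants, against 132, 125 and 121 FPKM in wild type, a log2 change of -1.62 ± 0.21 (SE, edgeR adjusted p 0.000134). The gene arr3b (chromosome 14) had 9.37, 5.01 and 4.69 FPKM in mutants, against 34.0, 22.3 and 28.1 FPKM in wild type, a log2 change of -2.26 ± 0.22 (SE, edgeR adjusted p 1.66e-05). Wild type arr3a values lay close together while its mutant values spread more than 2-fold. The ratio of arr3a to arr3b per exonic base was 6.93, 5.43 and 8.64 in mutants and 3.89, 5.62 and 4.29 in wild type, and these groups overlapped.

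The log2 changes of the rod arrestin genes were nearer to 0 than those of either cone arrestin. The gene sagb had 16.1, 14.5 and 19.5 FPKM in mutants, against 28.0, 26.5 and 21.7 FPKM in wild type, a log2 change of -0.71 ± 0.14 (SE, edgeR adjusted p 0.00226). Mutant c was close to wild type c, although the groups did not overlap. Its paralog saga had 3.05, 1.14 and 1.97 FPKM in mutants, against 4.47, 3.94 and 3.83 FPKM in wild type, a log2 change of -1.10. The table's description names retina and pineal gland for both genes. Of the 8 tested genes in a list of pineal markers, aanat2, which encodes the enzyme that times melatonin synthesis, fell by 1.40 on the log2 scale, parietopsin rose by 0.67, and the other 6 passed in neither direction. The shares over all tested genes were 16.7% lower and 16.5% higher. The summed FPKM of the pineal list was 12.1, 10.02 and 11.0 in mutants and 11.3, 12.03 and 12.8 in wild type. The pineal part of the arrestin counts was not tested.

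Of the opsin kinase genes, 3 fell. The cone kinase gene grk1b had 1.92, 1.13 and 1.01 FPKM in mutants, against 7.60, 5.22 and 7.57 FPKM in wild type, a log2 change of -2.43 ± 0.23 (SE, edgeR adjusted p 1.1e-05). The cone kinase gene grk7a, the highest of these genes in each sample, had 5.86, 2.73 and 3.37 FPKM in mutants, against 10.8, 9.88 and 11.7 FPKM in wild type, a log2 change of -1.55. The rod kinase gene grk1a had 1.10, 0.41 and 0.49 FPKM in mutants, against 1.28, 1.9 and 1.41 FPKM in wild type, a log2 change of -1.30. The kinase gene grk7b stood apart from them in direction, with 39, 25 and 23 counts in mutants and 22, 17 and 15 counts in wild type. Its log2 change of 0.47 ± 0.31 (SE) did not pass (edgeR adjusted p 0.263). In FPKM each mutant was higher, at 1.26, 0.84 and 0.84 against 0.80, 0.63 and 0.54 in wild type. In scaled counts the groups of grk7b overlapped.

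Recoverins are calcium sensors that restrain the opsin kinases. The gene rcvrn3 (ENSDARG00000009637, chromosome 19, 10420613 to 10433654, plus strand) had 7.40, 3.26 and 4.08 FPKM in mutants, against 33.2, 26.8 and 33.2 FPKM in wild type, and fell 6.83-fold, a log2 change of -2.77 ± 0.22 (SE, edgeR adjusted p 3.29e-06). The gene rcvrn2 had 18.1, 10.03 and 14.4 FPKM in mutants, against 34.6, 34.4 and 29.8 FPKM in wild type, a log2 change of -1.33 ± 0.16 (SE, edgeR adjusted p 8.11e-05). The pair stood at similar levels in wild type, where rcvrn2 was 1.04, 1.28 and 0.898 times rcvrn3 per exonic base, and differed in mutants, where it was 2.44, 3.07 and 3.54 times rcvrn3. The log2 of this ratio was 1.49 higher in mutants, with no overlap between the groups. It was not a planned comparison and was not tested, and the share of other gene pairs without overlap was not computed.

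**Figure D2:**
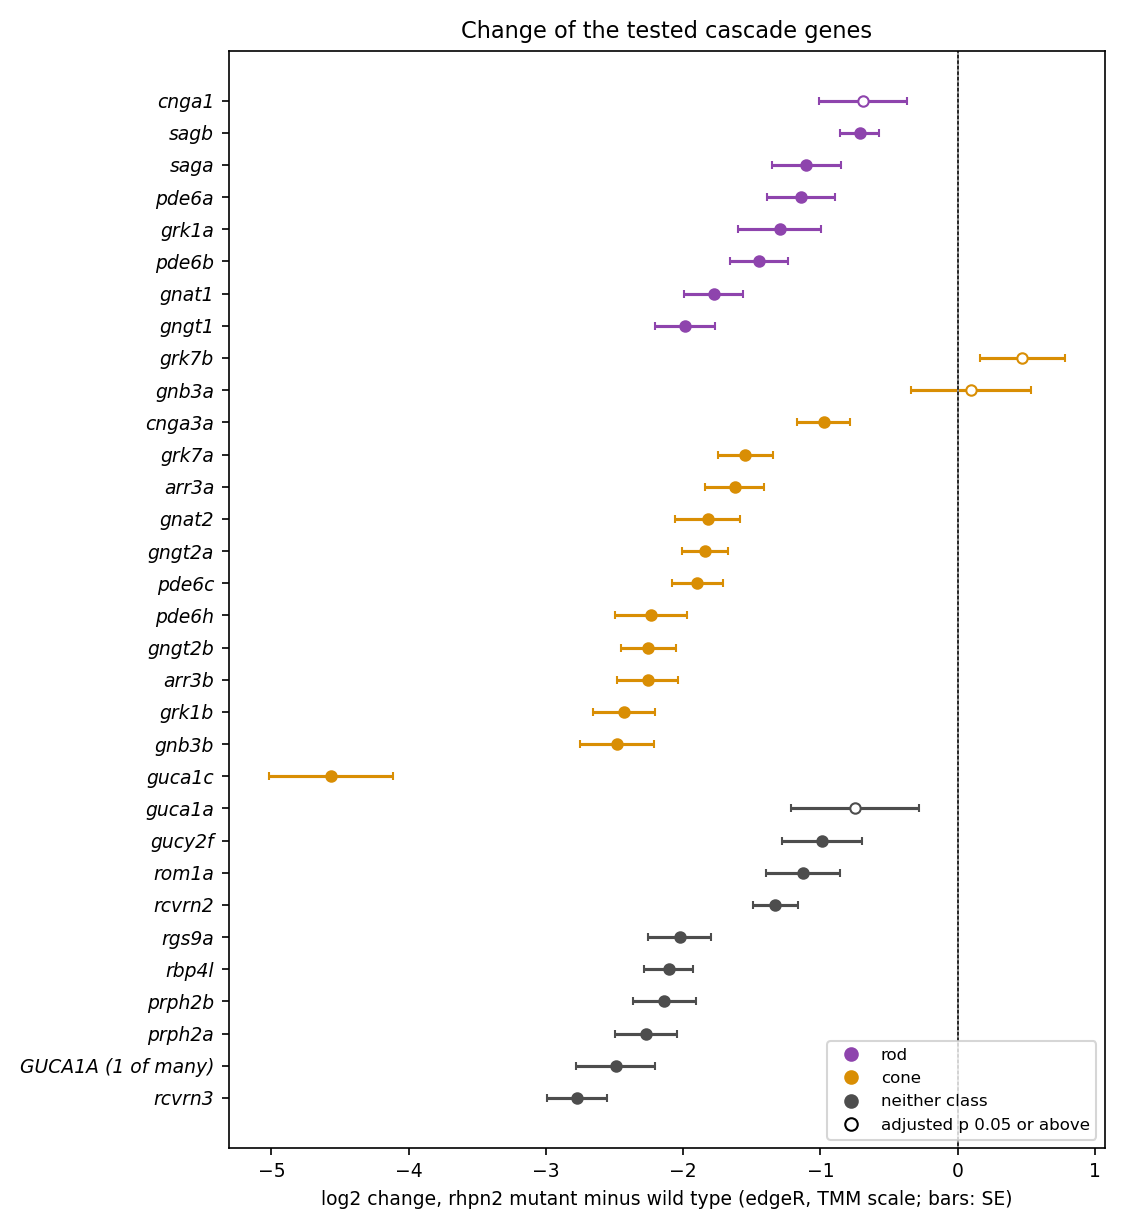
Log2 change (mutant minus wild type, edgeR on the TMM scale) with its SE for the 32 tested members, grouped into rod, cone and unplaced genes, with open circles for the 4 members that did not pass. The rod genes lie between -1.99 and -0.69, and guca1c at -4.57 is the farthest from 0.

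Genes of cyclic GMP synthesis were among the members with the fewest counts. The cone cyclase activator gene guca1c (ENSDARG00000030758, chromosome 15, 2925166 to 2940389, minus strand) had 6, 0 and 4 counts in mutant a, b and c, against 85, 61 and 67 counts in wild type. The 0 in mutant b allows up to 3 counts, or 0.183 CPM on the scale of library totals, for counting error only. Its log2 change was -4.57 ± 0.45 (SE, edgeR adjusted p 1.67e-05), from a gene that had to differ to pass the filter. It was -5.20 to -3.99 without single samples, with -3.99 without mutant b, and -3.77 and -1.68 by limma on log2(FPKM + 0.1) and log2(FPKM + 1). The copy GUCA1A (1 of many) (ENSDARG00000100747, chromosome 22, 1121099 to 1130072, plus strand) had 1.61, 1.02 and 1.22 FPKM in mutants, against 6.91, 5.10 and 8.28 FPKM in wild type, a log2 change of -2.49 ± 0.29 (SE, edgeR adjusted p 4.73e-05). The activator gene guca1a had 5, 10 and 10 counts in mutants, against 7, 18 and 12 counts in wild type. Its groups overlapped and it did not pass (log2 change -0.75, edgeR adjusted p 0.235). The cyclase gene gucy2f had 0.32, 0.18 and 0.26 FPKM in mutants, against 0.33, 0.49 and 0.59 FPKM in wild type. Its log2 change of -0.99 passed with an edgeR adjusted p of 0.0202, and the call was lost without mutant b (0.0834), mutant c (0.0536), wild type b (0.0515) or wild type c (0.0769) and with limma (0.0894 and 0.098 over 2 pseudocounts).

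The median log2 change of the 2 channel members, -0.83, was the nearest to 0 among the steps with both a rod and a cone member. Channel subunit genes outside the member list changed by -1.65 (cnga3b), -1.82 (cngb1a), -1.42 (CNGB1), -1.74 (cngb3.1) and -0.60 (cngb3.2). Of these, cngb3.2 did not pass. The cone channel subunit gene cnga3a had 2.89, 1.60 and 2.08 FPKM in mutants, against 3.42, 4.4 and 4.21 FPKM in wild type, a log2 change of -0.98 ± 0.19 (SE, edgeR adjusted p 0.00198). The rod channel subunit gene cnga1 had 32, 15 and 25 counts in mutants, against 36, 24 and 41 counts in wild type. The groups of cnga1 overlapped, and its log2 change of -0.69 did not pass (edgeR adjusted p 0.117).

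Genes for the rim of the outer segment discs fell. The peripherin genes prph2a and prph2b, whose products shape the disc rim in rods and cones, stood at overlapping ratios to each other, with prph2a at 0.731, 0.767 and 0.667 times prph2b in mutants and 0.763, 0.827 and 0.797 times in wild type. The gene prph2a had 5.17, 2.34 and 2.57 FPKM in mutants, against 16.6, 12.8 and 15.8 FPKM in wild type, a log2 change of -2.27 ± 0.23 (SE, edgeR adjusted p 1.66e-05). The gene prph2b had 7.08, 3.05 and 3.86 FPKM in mutants, against 21.7, 15.4 and 19.8 FPKM in wild type, a log2 change of -2.14 ± 0.23 (SE, edgeR adjusted p 3.04e-05). Their partner gene rom1a had 1.12, 0.52 and 0.60 FPKM in mutants, against 1.07, 1.86 and 1.65 FPKM in wild type, a log2 change of -1.13. Mutant a and wild type a were about level for rom1a.

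The GTPase accelerator gene rgs9a had 1.49, 0.87 and 0.81 FPKM in mutants, against 3.62, 4.51 and 3.96 FPKM in wild type, a log2 change of -2.02 ± 0.23 (SE, edgeR adjusted p 4.22e-05). The gene rbp4l, which encodes a secreted retinol-binding protein of photoreceptors, had 12.4, 6.74 and 9.86 FPKM in mutants, against 44.3, 34.3 and 36.9 FPKM in wild type. The mutants stood clear of wild type in both of these genes.

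Rod and cone genes both fell, with a smaller median among rod genes. Of 8 rod members 7 fell, with a median log2 change of -1.22. Of 14 cone members 12 fell, with a median of -1.87. Over all genes tested 16.7% fell, and the median was 0.01. Rod changes lay between -1.99 and -0.69, and cone changes between -4.57 and 0.47. The cone genes of least certain placement, gnb3a and grk7b, were also the cone members that did not fall. Leaving them out, a choice made after seeing the data, thus fixed that the other 12 fell. Those 12 had a median of -2.06 and changes from -4.57 to -0.98. The choice itself moved this median and the upper end of the range away from 0. In the full cone class, gnb3a (0.10) and grk7b (0.47) lay nearer to 0 than any rod member. Without guca1c 11 of 13 cone genes fell, with a median of -1.84. The difference between these medians was not tested. Roles with both a rod and a cone gene give 13 rod-to-cone pairs. In 6 of them the within-sample ratio was higher in every mutant than in every wild type sample. These were gngt1 over gngt2b, pde6a over pde6c, and the rod arrestin genes over either cone arrestin gene, with log2 differences from 0.29 for gngt1 over gngt2b to 1.59 for sagb over arr3b. In 1 pair, grk1a over grk7b, the ratio was lower in every mutant, with a log2 difference of -1.87. In the other 6 the groups overlapped, with differences from -0.13 for gngt1 over gngt2a to 1.05 for grk1a over grk1b. The pairs of the gamma, phosphodiesterase, arrestin and kinase roles share genes and are not separate observations, and the share of such ratios over other gene pairs was not computed.

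Rod genes made up 9.32%, 12.8% and 11.9% of the summed member FPKM in mutants, against 7.29%, 7.93% and 6.71% in wild type. The share was higher in each mutant, by 4.03 percentage points on average. Much of this lay with sagb: without it the rod share was 5.54%, 5.98% and 5.38% in mutants and 4.96%, 5.09% and 4.59% in wild type, a difference of 0.75 points. Cone genes made up 76.9%, 73.0% and 74.6% in mutants and 78.4%, 76.6% and 77.8% in wild type, with overlap between mutant a and wild type b. These cone shares include gnb3a, whose cone placement is uncertain, at 31.7 FPKM in mutant a and 36.4 FPKM in wild type b. The overlap may depend on gnb3a, and a cone share without it is not given.

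**Figure D3:**
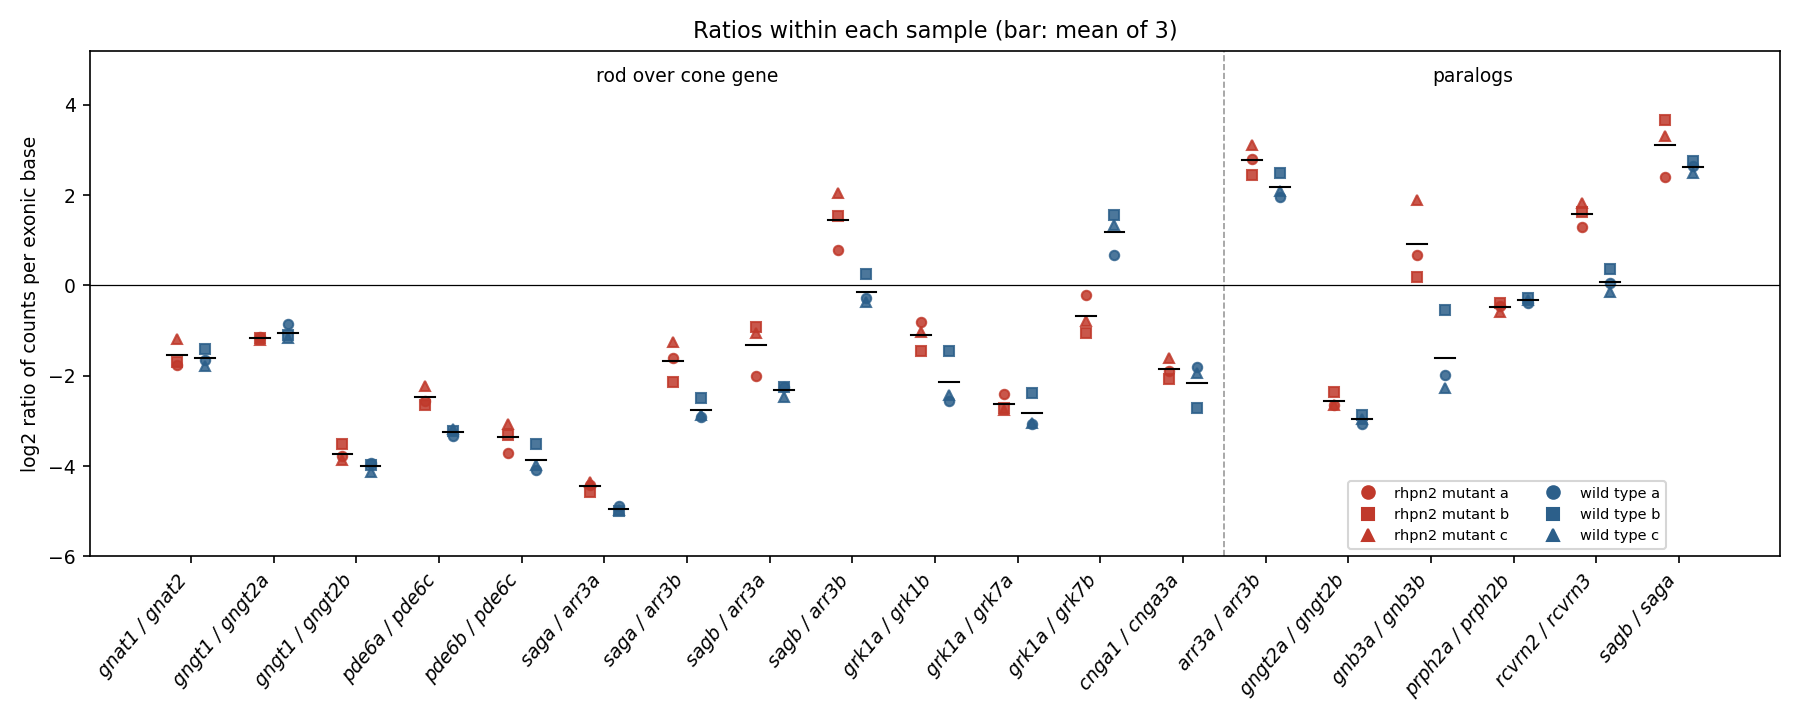
Log2 ratio of counts per exonic base (0.5 added to each count) between pairs of members in each sample, with rod genes over cone genes on the left, paralogs on the right, mutants left of wild type and a bar at the mean of 3 samples. The means are widest apart for gnb3a over gnb3b, at 0.92 in mutants and -1.60 in wild type, and next for grk1a over grk7b, at -0.68 in mutants and 1.19 in wild type.

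Mutant samples kept a common order across the cascade. Mutant a was the highest mutant for 28 of 32 tested members, where it was highest for 34.1% of all tested genes. Mutant b was the lowest mutant for 25 members, against 31.1% of all tested genes. Outside the cascade the order was seen in some lists only. For amacrine, horizontal and ganglion cell genes mutant a was the highest mutant for 14 of 15 and mutant b the lowest for 13. In the bipolar list mutant b was the lowest for 8 of 8, while mutant a was the highest for 3. Of 18 visual cycle genes mutant a was the highest for 5 and mutant b the lowest for 5. Of 12 genes of glia and pigment epithelium these numbers were 2 and 1. Median log2 levels of the cone members relative to their wild type means were -1.42, -2.24 and -2.04 in mutant a, b and c, and those of the rod members were -0.71, -1.58 and -1.17. Levels of rhpn2 did not follow this order, at 2.73, 2.83 and 2.99 FPKM. Without mutant a, 28 members fell with a median of -2.06, where 12.8% of all genes fell. Without mutant b, 27 members fell with a median of -1.55, where 12.4% of all genes fell.

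Opsins, the receptors at the head of the cascade, fell as well. Of 10 opsin genes 7 were tested, and these 7 fell, where 16.7% of all tested genes fell. Their median log2 change was -1.88, with opn1sw1 of ultraviolet cones at -2.61 and rho of rods at -1.72. The summed FPKM of the 10 opsin genes was 387, 195 and 245 in mutants, against 1155, 973 and 1085 in wild type, the same order of mutants as in the cascade.

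Other genes of the cascade outside the member list followed in part. Of 25 tested, 13 fell and 0 rose by edgeR, where 16.7% of all tested genes fell and 16.5% rose. The median log2 change was -0.60, and 2, the transducin regulators gnb5a and pdcl, had a positive change at an unadjusted p below 0.05. DESeq2 called 0 of the 25 higher and limma 1, against 14.8% and 21.9% of all genes. The phosducin gene pdcb, whose product binds transducin beta and gamma, had 6.15, 3.79 and 3.96 FPKM in mutants, against 23.2, 17.6 and 20.9 FPKM in wild type, a log2 change of -2.26 (edgeR adjusted p 2.41e-06). The other genes with the smallest p were the cation exchanger slc24a2 (-2.05), the cyclase gc3 (-1.49), the RGS9 partner gnb5b (-1.04), the cyclase activator guca1g (-2.07) and the channel subunit copy CNGB1 (-1.42). The beta subunit genes gnb1a and gnb1b, which are broadly expressed, had log2 changes of 0.07 and -0.05 and did not pass (edgeR adjusted p 0.564 and 0.684). Paralogs of the members rgs9a, rcvrn2 and rcvrn3 did not follow them closely. The genes rgs9b (0.17) and rcvrnb (0.32) did not pass, and rcvrna fell with a log2 change of -0.58.

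Of 18 tested genes of the visual cycle, which regenerates the opsin's chromophore, 11 fell and 1, the retinol acyltransferase gene lrata, rose. Over all tested genes 16.7% fell and 16.5% rose. The median log2 change of the visual cycle list was -0.59. The retinoid carrier gene irbp, known from photoreceptors, had 4.06, 3.66 and 3.45 FPKM in mutants, against 28.0, 18.7 and 31.9 FPKM in wild type, a log2 change of -2.92 ± 0.18 (SE, edgeR adjusted p 4.33e-07). The remaining genes with the smallest p were rpe65a (-1.17), rgra (-1.18), rdh8a (-0.86), rlbp1b (-1.29) and rdh10a (-0.62). In contrast to irbp, lrata had 8.39, 8.22 and 7.81 FPKM in mutants, against 3.46, 3.53 and 2.66 FPKM in wild type, a log2 change of 1.23 (edgeR adjusted p 0.000232).

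Lists of other genes known from the retina had medians nearer to 0. Whole embryos were sequenced, so transcripts from outside the retina may be in these values, and the retinal part was not tested. The list of photoreceptor transcription factors, with 13 genes tested, had a median log2 change of 0.09. In it 3 genes fell and 2 rose, near the shares over all tested genes (16.7% and 16.5%). Among them crx, a regulator of photoreceptor genes, had 36.0, 21.5 and 30.6 FPKM in mutants, against 25.6, 35.7 and 27.4 FPKM in wild type, and did not pass (edgeR adjusted p 0.604). The member of this list with the smallest p, nr2e3, a factor known from rods, rose by 1.08 on the log2 scale, and prdm1a rose by 0.46. The 3 that fell were rx1 (-0.91), otx5 (-0.51) and six7 (-0.43). Of 15 tested genes of amacrine, horizontal and ganglion cells 5 rose and 0 fell by edgeR, where 16.5% of all tested genes rose and 16.7% fell. DESeq2 called 5 of them higher and limma 6, where they called 14.8% and 21.9% of all genes higher. None was lower at an unadjusted p below 0.05, and 0 were lower by DESeq2 and limma (15.5% and 11.9% of all genes). The groups did not overlap with mutants higher for 2 of the 15, against 24.2% of all tested genes. Median log2 levels of this list relative to wild type means were 0.45, 0.00 and 0.22 in mutant a, b and c. In that list lhx1a led with a log2 change of 1.08. Among the tested bipolar genes, those that fell were cabp5b (-1.64), nyx (-2.14) and trpm1a (-1.15). Of 12 genes of Müller glia and retinal pigment epithelium 3 fell and 3 rose, against 16.7% and 16.5% of all tested genes. Those that fell were rpe65a (-1.17), which had the smallest p of the 12, rlbp1b (-1.29) and glula (-0.43). Those that rose were cahz (0.90), slc1a3b (0.56) and glulb (0.28). Among these 12, cahz was the one with the smallest p outside the visual cycle list. Differences between these lists and the cascade were not tested.

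**Figure D4:**
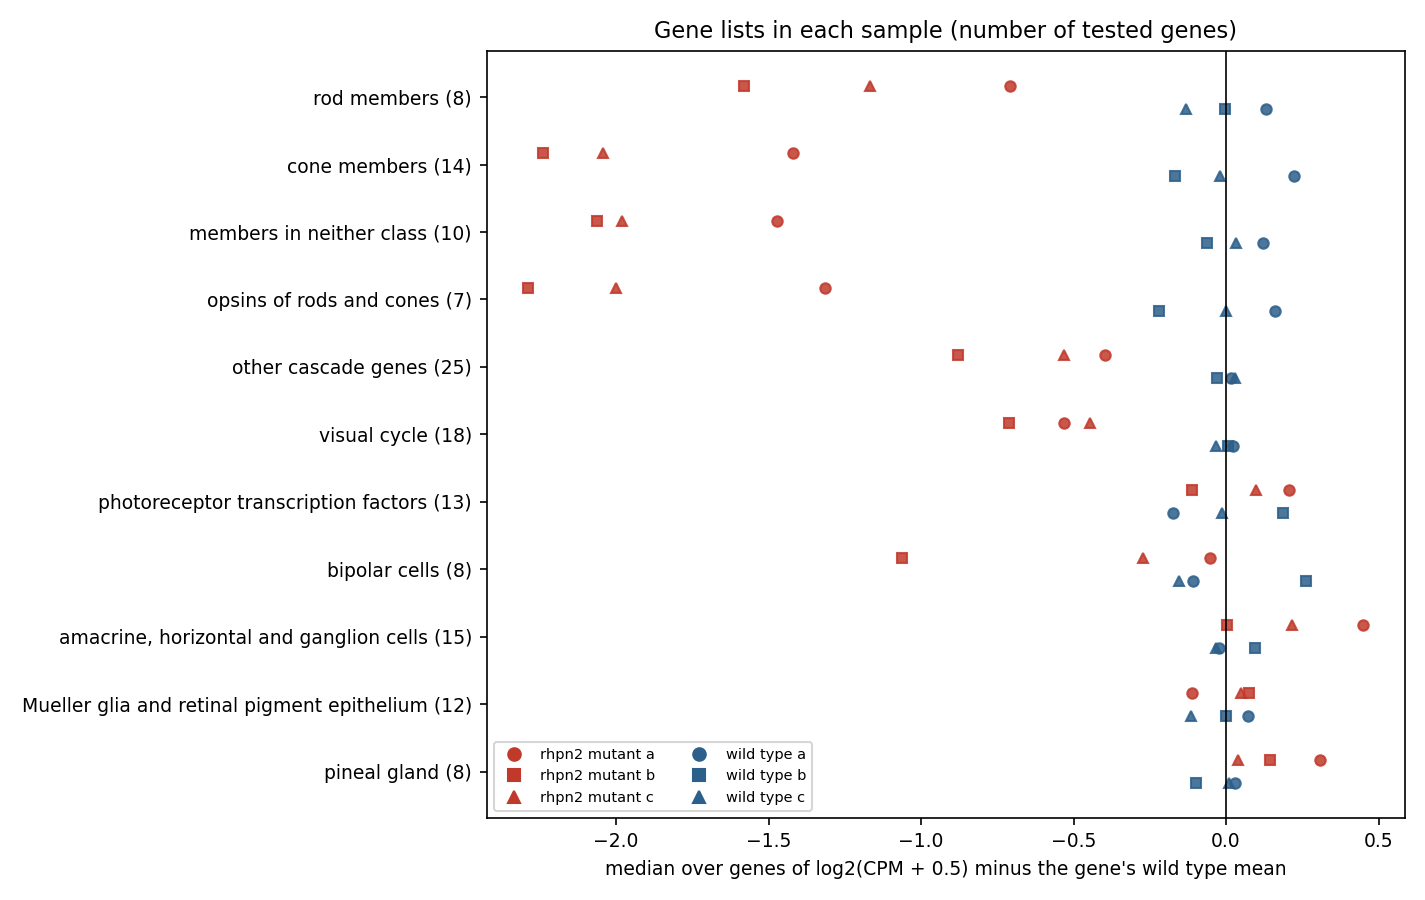
Median over the tested genes of each list of log2(CPM + 0.5) minus the gene's wild type mean, by sample, with mutants above wild type and the number of tested genes in brackets. Cascade members and opsins lie at or below -0.71 in the mutants, while the lists of photoreceptor transcription factors, of glia and pigment epithelium and of the pineal gland lie between -0.11 and 0.31 there, the list of amacrine, horizontal and ganglion cells between 0.00 and 0.45, and the bipolar list between -1.06 in mutant b and -0.05 in mutant a.

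By the Gene Ontology column of the table, which the choice of members did not use, 11 of the 33 carry the term visual perception. Another 59 tested genes carry that term, of which 29 fell and 4 rose (median log2 change -0.40), against 16.7% and 16.5% of all tested genes. That set was formed after values were seen, and it includes 7 opsins, 3 crystallins and 24 genes of the lists above. The members lie on 18 chromosomes, none of them chromosome 7, where rhpn2 lies. The spans of 7 members (gnb3b, gnat2, guca1d, rbp4l, grk1a, pde6c and pde6h) overlap other genes, and their reads may be shared. The library kit's name has no directional mark, so this may hold for genes on opposite strands too. The members grk1a, pde6c and pde6h each overlap a gene on their own strand. The overlapping genes of gnb3b and pde6c, si:dkey-89b17.4 and cep55l, rose by 0.46 and 0.49 on the log2 scale while the members fell. For gnat2 the overlapping gene ampd2b did not pass (0.19), and cul4a and ap1m2, which overlap grk1a and pde6h, fell by 0.29 and 0.43. Reads of paralogs could also be split between them by the counting, which was not tested.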

How the data were processed

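Members and lists were chosen with earlier results of these data known. The authors deposited 1 table of read counts and FPKM per gene. The deposited counts are whole numbers with no normalization, and recomputing the deposited FPKM from these counts, exonic sizes and library totals gave the same values for well-counted genes. Tools named without a role in the submitters' processing notes are Salmon 1.9.0, STAR 2.7.10a, fastp 0.23.2 and bcl2fastq 2.20.0.422. No source used here names a build or annotation release, and coordinates are printed as the table has them. Promoter and protein sequences were not analysed here.

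Testing used edgeR 4.0.16 (R 4.3.3) and its quasi-likelihood F test on the counts (filterByExpr with a minimum count of 10 and total of 15, TMM factors, group as the only term), with Benjamini-Hochberg adjustment over 20032 genes at 0.05. Each SE is the log2 change over the root of F. On simulated counts of this comparison with 20032 genes, edgeR recovered 38% of genes changed 1.5-fold, 78% changed 2-fold, 98% changed 4-fold and 100% changed 8-fold, and called 13 of 19832 unchanged genes. The simulation changed 50 genes at each fold with independent noise per gene, while 33.2% of genes were called in the real data. Its rates may therefore not hold for the real comparison. Alternatives were DESeq2 1.42.0, limma 3.58.1 on log2(FPKM + 1) and log2(FPKM + 0.1), other scalings, no filter, the replicate letter as a block and leaving out each sample. Same-letter samples did not deviate together, so the letters were not treated as pairs. Libraries of a group differed by 4.22 to 14.5 chi-square per degree of freedom, above sampling noise. Floors cover counting error only.

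Named genes are all members, the smallest-p gene of each other list and the 6 smallest-p genes of the lists of other cascade genes and of the visual cycle. Others, such as crx, rx1, otx5, six7, prdm1a, glula, glulb, slc1a3b, lrata, gnb1a, gnb1b, gnb5a, pdcl, cnga3b, cngb1a, cngb3.1, cngb3.2 and the bipolar genes, were named after their values were seen. The same holds for rlbp1a, isl2b, rgs9b, rcvrna and rcvrnb. Of 125 symbols in the other lists, 114 were found. The values of 1 gene of the bipolar list are not reported here.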

Additional observations from a re-analysis of the deposited data

How the results depend on the processing

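Of the 32 tested members, 30 kept their direction and their side of the threshold under all 13 alternatives in which they had a value, and the exceptions were gucy2f and gnb3a. The call of gucy2f was lost in 6 alternatives (adjusted p 0.0515 to 0.098). The log2 change of gnb3a, which never passed, ranged from -0.33 to 0.60 without single samples and was negative without mutant a (-0.05), mutant c (-0.33), wild type a (-0.04) or wild type c (-0.18). With the replicate letter as a replicate block, 28 members fell and 0 rose, as without it, and 5356 genes changed in all. The number of members that fell was 27 to 28 without single samples, and the number that rose was 0 in each of these. The median log2 change without single samples was -2.06 to -1.55 for all members, -1.53 to -0.99 for rod members and -2.18 to -1.74 for cone members. With limma on log2(FPKM + 1) the rod median was -0.60, a scale on which a pseudocount of 1 is as large as the level of several rod genes. With library totals the rod and cone medians were -1.11 and -1.75. The difference in the log2 ratio of gnat1 to gnat2 ranged from -0.11 to 0.17 without single samples, reversing without mutant c (-0.11) and wild type c (-0.01). The difference in rod share was 3.29 to 5.04 percentage points without single samples and 0.75 without sagb, alternatives chosen after seeing the data. Genes that changed over the whole table numbered 4886 to 6710 without single samples. Without guca1c 27 members fell, and the cone median was -1.84 without guca1c and -2.06 without gnb3a and grk7b, also chosen after seeing the data. The members guca1d, guca1a, grk7b and cnga1 had at most 41 counts in any sample, and the part of depth in their missing calls was not tested.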
